A study of Homo sapiens with 12 samples.

Results

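The genes described here encode the enzyme families that oxidise, reduce and conjugate drugs and steroids: the cytochromes P450 (CYP), UDP-glucuronosyltransferases (UGT1A, UGT2A and UGT2B), sulfotransferases (SULT1 and SULT2), glutathione S-transferases (GST), alcohol dehydrogenases (ADH) and aldo-keto reductases of family AKR1. They were chosen by gene symbol among protein-coding genes, with CYP51A1, a sterol synthesis enzyme, left out. The rule took 117 of the 57773 counted genes: 55 CYP, 17 GST, 17 UGT, 11 SULT, 10 AKR1 and 7 ADH genes. A further 4 symbols that met the rule in the annotation were not analysed here.

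RNA came from HuH-7, a long-established hepatoma cell line, in 4 groups of 3 libraries. Mutant RIP (RNA immunoprecipitation) held the RNA recovered with V5-tagged HuR from cells stably expressing HuR(K120/182R), and WT RIP the RNA recovered in the same way from cells stably overexpressing WT HuR. Mutant input and WT input held total RNA of the same cells before precipitation. HuR, the product of ELAVL1, is an RNA-binding protein known for U-rich and AU-rich elements, and in the mutant a pair of lysines that can carry the small protein SUMO are arginines. The sample descriptions name no agent added to either line, while the names of all 12 deposited tables carry the word DMSO, a common solvent for drugs, which no description explains. Both lines carry V5-tagged HuR, and no precipitate without V5-tagged HuR was used here. The labels number 3 replicates per group without saying whether they were separate cultures, and p-values therefore cover only the variation among these libraries, which may be technical. Each line is compared as 1 line, and differences between them cannot be told apart from differences between the cells from which the lines were grown.

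In liver these enzymes work in sequence. P450 enzymes, ADH and AKR1 enzymes introduce or alter an oxygen group on a drug, steroid, bile acid, retinoid or fatty acid, and UGT, SULT and GST enzymes then attach glucuronic acid, sulfate or glutathione, which makes the product easier to excrete. Hepatoma lines are known to keep only some of the P450 activity of adult hepatocytes. Several of these genes lie in clusters of near-identical copies, so reads of close relatives may have been shared or lost in counting.

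Library totals ranged from 31774994 to 73149117 counts, and the enzyme genes took 0.0727% to 0.145% of them. Levels are given as CPM, counts per 1e+06 of the library size scaled by the trimmed mean of M values, which sets the typical gene equal between libraries, and differences as log2 fold changes ± standard error (SE). All directions are relative to the typical gene: with total library size instead, the median of all genes became 1.38 for mutant RIP over mutant input, 1.12 for WT RIP over WT input, −0.17 for mutant RIP over WT RIP and −0.43 for mutant input over WT input. Each RIP library started with 16 to 77 ng of RNA and each input library with 250 ng, which cannot be told apart from precipitation itself. ELAVL1 stood at 31.6, 25.2 and 24.9 CPM in mutant RIP, 38, 33 and 32.5 in WT RIP, 52.7, 48 and 44.4 in mutant input and 64.2, 54.1 and 56.4 in WT input, where the tagged copy and the cells' own gene are counted together. The 10 hepatocyte and hepatoma markers summed to 3735 to 4188 CPM in mutant RIP, 5968 to 6239 in WT RIP, 9020 to 10169 in mutant input and 11487 to 13493 in WT input, and none was at 0. The 3 immune markers summed to 2.72 to 5.66 CPM over all libraries, the 2 endothelial markers in the files to at most 0.127 and the 3 stromal markers to at most 0.196. In bulk libraries such as these, fewer cells making an RNA and less of that RNA per cell cannot be told apart.

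Of the 117 enzyme genes, 76 had enough counts to be tested (30 CYP, 14 UGT, 12 GST, 9 SULT, 7 AKR1 and 4 ADH), and 48 of them averaged at least 1 CPM. Each of the 76 reached the filter's count level in at least 1 library of more than 1 group, which is less than the filter asks of a group. Low-count genes may therefore have been tested mainly through the group or line where they are high. By their levels, UGT2A1 met the filter through mutant RIP and CYP26A1 through the WT line. The other 41 had at most 70 counts summed over the 12 libraries, and CYP11B2, CYP4F22 and GSTT1 had 0 in every library, which does not show that they were absent. The major drug oxidase of adult liver, CYP3A4, had 2, 2 and 8 counts in mutant RIP and 12, 7 and 6 in WT RIP, against 0, 1 and 5 in mutant input and 4, 0 and 2 in WT input. The bile acid synthesis genes CYP7A1 and CYP8B1 had 0 to 4 and 0 to 8 counts in a library. These genes were near the limit of detection at this depth, and no difference is read from them.

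Per kilobase of exon, the most abundant enzyme mRNA in every group was that of GSTP1, the pi-class glutathione transferase, at 172 CPM per kilobase in mutant RIP, 181 in WT RIP, 572 in mutant input and 630 in WT input. The next, GSTO1, an omega-class transferase, had 44.5 CPM per kilobase in mutant RIP, 63.6 in WT RIP, 43.6 in mutant input and 62.8 in WT input. GSTP1 thus set the sum over the families. All enzyme genes together, with 1 gene standing for UGT1A, came to 718 ± 83.1 CPM in mutant RIP and 755 ± 102 in WT RIP, against 1420 ± 175 in mutant input and 1619 ± 51.6 in WT input (mean ± SD, n = 3 each). Without GSTP1 the sums were 415 ± 24, 436 ± 22.4, 412 ± 18 and 507 ± 6.35 CPM in mutant RIP, WT RIP, mutant input and WT input, so that the groups of the mutant line differed by less than 1 SD and WT RIP stood below WT input. This order depended on the scaling: with total library size the sums without GSTP1 were 587, 703, 236 and 394 CPM in mutant RIP, WT RIP, mutant input and WT input, with the precipitates above the inputs in both lines.

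**Figure D1:**
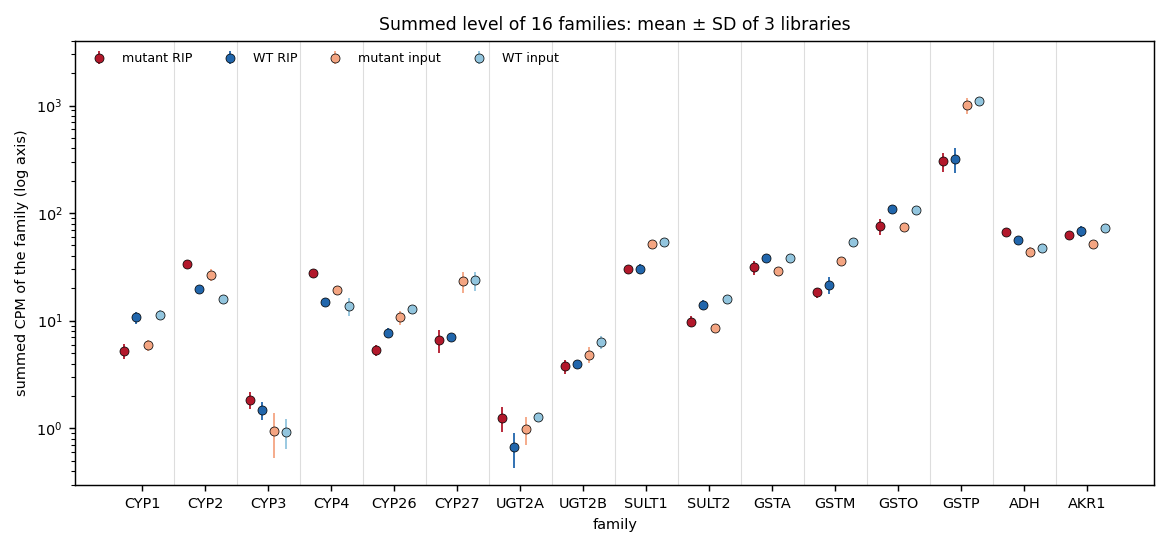
Summed CPM (vertical log axis) of 16 enzyme families (horizontal axis) in mutant RIP, WT RIP, mutant input and WT input; points are means and bars SDs of 3 libraries. GSTP, GSTM, CYP27 and SULT1 stand lower in both precipitates than in both inputs, and CYP2 and CYP4 stand higher in both mutant groups than in both WT groups.

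The first question was which enzyme mRNAs came down with V5-tagged HuR out of proportion to the total RNA of their cells. In mutant RIP over mutant input, 13 enzyme genes were higher and 19 lower by edgeR's quasi-likelihood test (Benjamini-Hochberg adjusted p under 0.05), which is 42.1% of the 76 tested beside 57.0% of all 22984 genes (29.0% higher and 28.0% lower). In WT RIP over WT input, 6 were higher and 21 lower, 35.5% of those tested beside 50.9% of all genes (25.6% higher and 25.4% lower). With total library size the balance turned, to 55 higher and 3 lower in the mutant line and 49 and 7 in WT, as the median of all genes moved up with it. Among coding genes alone, the kind to which all the enzyme genes belong, 62.7% were called in the mutant line (26.6% higher and 36.1% lower) and 56.1% in the WT line (22.0% higher and 34.1% lower). The share of enzyme genes called was below these backgrounds in both lines. The 76 include 7 UGT1A genes that carry nearly the same counts and were not called. With 1 gene standing for them, the same calls fell among 70 genes, so each share was slightly higher and still below these backgrounds. All 10 hepatocyte markers were also lower in the precipitates of both lines by edgeR (10 and 9 by DESeq2), with median log2 fold changes of −1.24 in the mutant line and −1.13 in WT. Their directions too are relative to the typical gene, whose median became 1.38 and 1.12 with total library size. The part of the markers in these results was not tested. The median log2 fold change of the 76 enzyme genes was 0.114 in the mutant line and −0.0416 in the WT line, where that of all genes was 0.0717 and 0.0631 and that of coding genes −0.113 and −0.126. The enzyme genes of the WT line thus stood below all genes and above coding genes, and once every library was corrected for its dependence on GC content (GC trend removed) their medians became −0.223 and −0.21, beside −0.156 and −0.171 for coding genes. Of the called genes, 5 were higher in both lines, 17 were lower in both and 0 moved in opposite directions. Across the 42 genes of at least 1 CPM, with UGT1A counted once, the log2 fold changes of the lines, which share no library, correlated at Pearson r = 0.95 and Spearman rho = 0.942, as a description over genes that share these 12 libraries and their depths. With coding genes alone tested and scaled, the calls became 18 higher and 14 lower in the mutant line and 11 and 19 in the WT line, and with scaling factors from coding genes 18 higher and 13 lower in the mutant line.

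**Figure D2:**
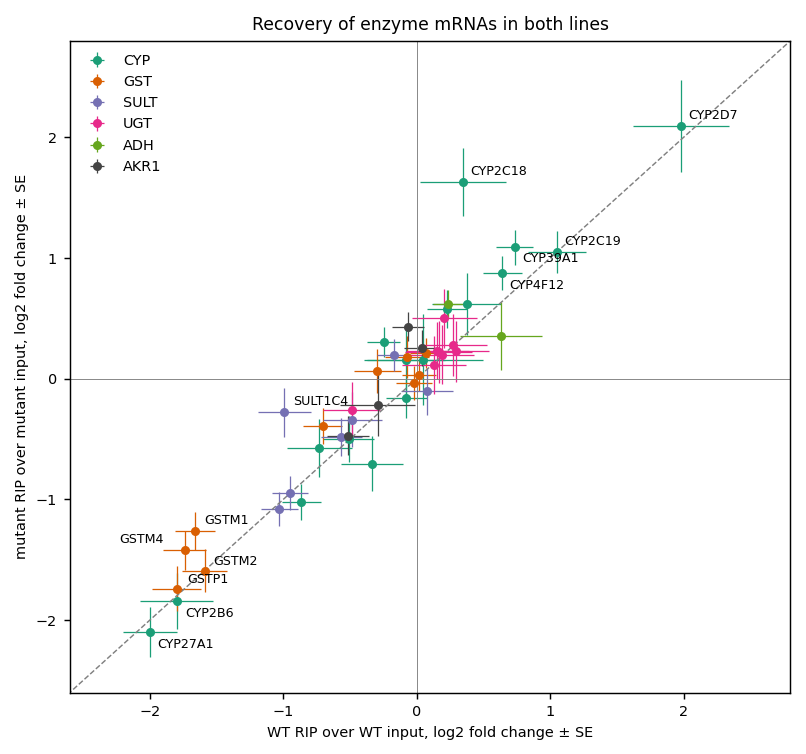
Log2 fold change ± SE of mutant RIP over mutant input (vertical axis) against WT RIP over WT input (horizontal axis) for the 48 enzyme genes of at least 1 CPM, coloured by family; the dashed line marks equal values. Most genes lie near the line, CYP2D7 at the upper end, CYP27A1, GSTP1 and CYP2B6 at the lower end, and CYP2C18 (1.63 in the mutant line and 0.34 in the WT line) above it.

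The P450 genes split in both directions, with 11 higher and 8 lower of 30 in the mutant line and 6 and 6 in the WT line. Of coding genes, 26.6% were higher and 36.1% lower in the mutant line and 22.0% and 34.1% in WT. Higher in both were CYP2D6 and CYP2D7, CYP2C19, CYP39A1 and CYP4F12, each also with every alternative scaling and with any 1 library left out. CYP2C19, an oxidase of proton pump inhibitors and clopidogrel (ENSG00000165841, chr10:96522438-96615304 on the plus strand, hg19), had 9.06, 9.68 and 9.73 CPM in mutant RIP against 3.64, 4.91 and 5.18 in mutant input. WT RIP held 1.32, 1.42 and 1.85 CPM against 0.761, 0.786 and 0.686 in WT input. All 3 precipitates stood above all 3 inputs in each line, a log2 fold change of 1.05 ± 0.17 in the mutant (edgeR adjusted p = 1.24e-05) and 1.05 ± 0.21 in WT (adjusted p = 0.00022). A pseudogene on the opposite strand overlaps 7.63% of its exon bases, which leaves its counts slightly uncertain.

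CYP39A1, an oxysterol hydroxylase of bile acid synthesis (ENSG00000146233, chr6:46517317-46620567 on the minus strand), had 9.66, 9.29 and 9.93 CPM in mutant RIP against 4.02, 4.94 and 4.55 in mutant input. WT RIP held 10.5, 11 and 11.2 CPM against 7.42, 6.23 and 6 in WT input. Its precipitates did not overlap the inputs in either line, at 1.09 ± 0.14 in the mutant (edgeR adjusted p = 4.12e-07) and 0.73 ± 0.14 in WT (adjusted p = 8.67e-05). CYP4F12, which hydroxylates fatty acids and some antihistamines, had 23.9, 23.4 and 21.9 CPM in mutant RIP against 11.6, 13.2 and 12.9 in mutant input. WT RIP held 8.7, 9.37 and 11.7 CPM against 7.17, 6.84 and 5.12 in WT input. It was higher in each precipitate than in any input of its line, at 0.88 ± 0.14 in the mutant (edgeR adjusted p = 8.81e-06) and 0.64 ± 0.15 in WT (adjusted p = 0.000651).

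The largest fold changes of this direction among genes of at least 1 CPM were those of CYP2D7, with 1.55, 1.45 and 2.11 CPM in mutant RIP against 0.715, 0.234 and 0.264 in mutant input. WT RIP held 1.9, 2.13 and 1.45 CPM against 0.444, 0.707 and 0.257 in WT input. Its neighbour CYP2D6, which metabolises codeine and tamoxifen, gave nearly the same values, at 2.13 ± 0.35 in the mutant and 2.02 ± 0.33 in WT beside 2.09 ± 0.38 and 1.98 ± 0.36 for CYP2D7 (edgeR adjusted p from 9.62e-06 to 5.83e-05). The genes are near-identical copies at low counts, so the members of the pair are not separate observations.

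A further 8 genes were called higher in the mutant line and did not pass in WT, but none of them differed between the lines in the test of that difference. CYP2C18, a relative of CYP2C19, had 3.26, 3.71 and 2.89 CPM in mutant RIP against 0.596, 1.2 and 1.37 in mutant input (1.63 ± 0.28, edgeR adjusted p = 2.38e-05). WT RIP held 0.629, 0.592 and 0.73 CPM against 0.528, 0.681 and 0.343 in WT input (0.34 ± 0.32, adjusted p = 0.39). The mutant libraries did not overlap and the WT libraries did. ADH5, the glutathione-dependent formaldehyde dehydrogenase and the most counted ADH gene, had 62.2, 66.3 and 65.2 CPM in mutant RIP against 38.3, 46.8 and 40.8 in mutant input. WT RIP held 57.1, 53.2 and 54.1 CPM against 49.1, 47.3 and 43.4 in WT input. Each precipitate stood above each input, at 0.62 ± 0.11 in the mutant (edgeR adjusted p = 4.38e-05) and 0.23 ± 0.11 in WT (adjusted p = 0.0877). AKR1A1, an aldehyde reductase and the most counted AKR1 gene, had 50.4, 54.4 and 47.6 CPM in mutant RIP against 41.7, 35.5 and 35.8 in mutant input (0.43 ± 0.12, edgeR adjusted p = 0.00385). WT RIP held 41.6, 51.6 and 39.7 CPM against 45.1, 44.9 and 48.9 in WT input (−0.06 ± 0.12, adjusted p = 0.69). CYP2R1, the vitamin D hydroxylase of liver, and CYP19A1, the aromatase that makes estrogens, stood at 0.58 and 0.62 in the mutant and 0.23 and 0.38 in WT. The mutant calls of ADH5, CYP2R1 and CYP19A1 were lost once the GC trend of every library was removed (0.116, 0.088 and 0.134). The remaining 3 were CYP20A1, an orphan P450, at 0.30, and the low-count CYP2C8 and CYP3A43, at 2.2 and 2.47. CYP20A1 turned to −0.156 with the GC trend removed, and its call was lost without any 1 of the 6 mutant libraries (0.271 to 0.318). That of CYP2C8 was lost without mutant RIP 3 (1.88) and that of CYP19A1 without mutant RIP 2 or 3, mutant input 1 or 3, or WT RIP 3 (0.51 to 0.619).

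In the WT line alone, CYP2A6, the nicotine oxidase, was also called higher, at 1.89 ± 0.57 (edgeR adjusted p = 0.00769) beside 1.02 ± 0.59 in the mutant (adjusted p = 0.146), from levels of at most 0.48 CPM.

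Among the P450 genes lower in both lines, CYP27A1, the sterol hydroxylase of bile acid synthesis (ENSG00000135929, chr2:219646472-219680016 on the plus strand), had 5.31, 5.4 and 3.3 CPM in mutant RIP against 26.7, 16.8 and 17.1 in mutant input. WT RIP held 4.65, 5.91 and 5.57 CPM against 18, 20.1 and 26.4 in WT input. Its precipitates lay far below the inputs in both lines, at −2.10 ± 0.21 in the mutant (edgeR adjusted p = 2.93e-08) and −2.0 ± 0.20 in WT (adjusted p = 7.55e-08). CYP2B6, which metabolises bupropion and efavirenz (ENSG00000197408, chr19:41497187-41524303 on the plus strand), had 1.37, 1.18 and 1.56 CPM in mutant RIP against 4.62, 5.54 and 4.49 in mutant input. WT RIP held 0.397, 0.254 and 0.407 CPM against 1.5, 0.969 and 1.2 in WT input. No precipitate reached an input of its line, and the log2 fold change was −1.84 ± 0.23 in the mutant (edgeR adjusted p = 2.22e-07), −0.52 and no longer called with total library size, and −1.80 ± 0.27 in WT (adjusted p = 4.97e-06). CYP2S1, a dioxin-inducible P450 of skin and airway, stood at −2.62 ± 0.35 and −3.25 ± 0.52 from a mean level under 1 CPM. CYP26B1, which clears retinoic acid, had 5.55, 5.52 and 4.36 CPM in mutant RIP against 12.1, 9.46 and 9.73 in mutant input. WT RIP held 6.95, 7.05 and 5.67 CPM against 11.9, 11.3 and 12.6 in WT input. It was called lower at −1.02 in the mutant and −0.86 in WT, and these values turned to 0.289 and 0.188 with total library size. CYP2J2, an arachidonic acid epoxygenase, and CYP4F3, a leukotriene hydroxylase, were lower in both lines, at −0.50 to −0.73, and turned to 0.346 to 0.81 with total library size. CYP27B1, which activates vitamin D, and CYP4V2, a fatty acid hydroxylase of the eye, were called lower in the mutant line alone (−0.70 ± 0.23 and −0.99 ± 0.35), and both turned to higher values with total library size (0.622 and 0.327). The calls of CYP2J2 and CYP4F3 were each lost without any 1 of several libraries in both lines (−0.257 to −0.661), that of CYP27B1 without mutant RIP 3 or mutant input 2 (−0.551 and −0.604) or with the GC trend removed (−0.237, adjusted p = 0.373 by edgeR), and that of CYP4V2 without mutant RIP 2 or mutant input 1 (−0.707 and −0.843). CYP1A1, the dioxin-inducible enzyme, was not called in either line, at −0.16 ± 0.16 and −0.08 ± 0.15, and neither was CYP3A5, a relative of CYP3A4 under 1 CPM and the most counted gene of its family, at 0.54 ± 0.39 and 0.42 ± 0.41.

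Glutathione transferases were called lower or not at all: 6 of 12 were lower in each line, the same 6 genes, and 0 were higher by edgeR (DESeq2 also called 0 higher, as did an unadjusted p under 0.05), although GSTM3 and GSTO2 in both lines and GSTM1 in the mutant turned to higher with total library size. Beside them, 36.1% of coding genes were lower in the mutant line and 34.1% in WT (28.0% and 25.4% of all genes). GSTP1 (ENSG00000084207, chr11:67351213-67354127 on the plus strand) had 273, 372 and 264 CPM in mutant RIP against 1208, 944 and 875 in mutant input. WT RIP held 247, 410 and 298 CPM against 1072, 1093 and 1171 in WT input. Every precipitate was at 410 CPM or less and every input at 875 or more, a log2 fold change of −1.74 ± 0.19 in the mutant (edgeR adjusted p = 1.63e-08) and −1.80 ± 0.19 in WT (adjusted p = 1.52e-08), lower with each scaling tried. The mu-class genes lie side by side on chromosome 1. GSTM4 had 2.61, 3.15 and 2.68 CPM in mutant RIP against 7.69, 7.8 and 7.16 in mutant input (−1.42 ± 0.16). WT RIP held 2.56, 3.42 and 2.78 CPM against 9.85, 9.01 and 10.5 in WT input (−1.74 ± 0.16). GSTM2 stood at −1.59 ± 0.18 and −1.59 ± 0.17, GSTM1 at −1.26 ± 0.16 and −1.66 ± 0.15 and GSTM3 at −0.39 ± 0.15 and −0.70 ± 0.15 in the mutant and WT lines. GSTM1 shares 22.3% of its exon bases with GSTM2 on the same strand, and their separate values are uncertain. The sixth, GSTO2, stood at −0.79 and −0.98. With total library size the mutant calls of GSTM2 and GSTM4 were lost (−0.288 and −0.117). Those of GSTM3 and GSTO2 were lost without any 1 of several mutant libraries (−0.326 to −0.38 and −0.706 to −0.851), and that of GSTO2 in WT without WT RIP 3 (−0.716). The alpha-class genes were not called in either line: GSTA2 had 9.26, 13.5 and 12.2 CPM in mutant RIP against 11.3, 13 and 11.5 in mutant input (−0.04 ± 0.14). WT RIP held 17.3, 15.6 and 14.2 CPM against 16.5, 15.8 and 15.3 in WT input (−0.02 ± 0.14). GSTO1 gave 0.03 ± 0.13 and 0.02 ± 0.13, with overlapping libraries in both lines.

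**Figure D3:**
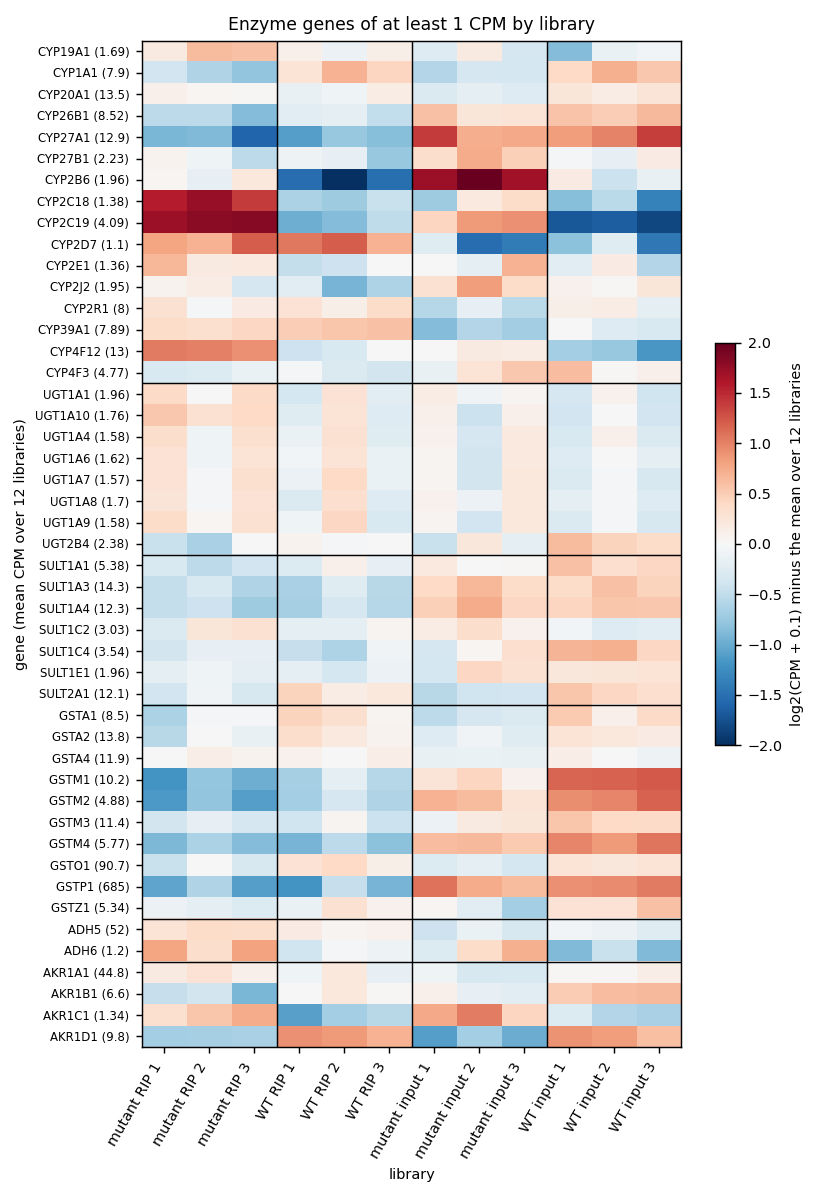
Level of each of 47 enzyme genes of at least 1 CPM (rows, with the mean CPM in brackets, grouped by family) in each of the 12 libraries (columns), as log2(CPM + 0.1) minus the mean of the gene over the libraries, with colours at their limit beyond 2 either way. GSTP1, GSTM1, GSTM2, GSTM4 and CYP27A1 are blue in the 6 precipitates and red in the 6 inputs, and CYP2C19 is darkest red in mutant RIP and blue in WT input.

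Sulfotransferases were likewise lower or not called, with 3 of 9 lower in the mutant line, 4 lower in WT and 0 higher by edgeR in either (DESeq2 also called 0 higher, as did an unadjusted p under 0.05), and with total library size SULT1A1, SULT1A3 and SULT1A4 in both lines and SULT1C4 in WT turned to higher values. These counts of lower genes were near the shares of coding genes called lower, 36.1% in the mutant line and 34.1% in WT. SULT1A3, a catecholamine sulfotransferase, had 9.71, 10.9 and 8.95 CPM in mutant RIP against 17.9, 21.6 and 17.6 in mutant input (−0.95 ± 0.14). WT RIP held 8.65, 11.4 and 9.15 CPM against 17.6, 20.3 and 18.5 in WT input (−0.95 ± 0.14). Its copy SULT1A4 stood at −1.08 and −1.03, and since the copies are near-identical and most of their exon bases lie in read-through genes, they count as 1 observation. SULT1A1, the main phenol sulfotransferase, stood at −0.48 ± 0.16, a call lost without mutant RIP 2 (−0.421), with the GC trend removed (−0.229) or with scaling factors from coding genes (−0.358), and −0.56 ± 0.15. SULT1C4 was called in WT only, at −0.99 ± 0.20 (edgeR adjusted p = 0.000153) beside −0.28 ± 0.20 in the mutant, and the difference of 0.71 ± 0.28 did not pass (adjusted p = 0.256). SULT2A1, which sulfates dehydroepiandrosterone and bile acids, had 8.91, 11.1 and 9.36 CPM in mutant RIP against 7.93, 8.79 and 8.88 in mutant input. WT RIP held 15.9, 12.9 and 13.5 CPM against 17.2, 15.5 and 14.8 in WT input. It was not called in either line, at 0.20 ± 0.14 and −0.17 ± 0.13.

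UGT1A1, the bilirubin glucuronosyltransferase, shares its last exons with the other UGT1A genes, and the 7 UGT1A genes carried nearly the same counts within each library (between 45 and 180), so they are 1 observation and not 7. UGT1A1 had 2.54, 1.93 and 2.55 CPM in mutant RIP against 2.15, 1.82 and 2.01 in mutant input, and 1.49, 2.38 and 1.63 in WT RIP against 1.5, 2.04 and 1.44 in WT input, with overlapping groups and no call in any comparison. Of the 7 UGT2 genes tested, UGT2B11 was lower in both lines (−0.94 and −0.86, turning to 0.349 and 0.2 with total library size), and UGT2B10, UGT2B7 and UGT2A3 were lower in WT alone. With total library size these WT calls were lost, at −0.598 for UGT2B10, −0.003 for UGT2B7 and −0.012 for UGT2A3. The UGT2B7 call was also lost with DESeq2's size factors (−0.992), with factors from coding genes (−0.901) and without any 1 of 8 libraries (−0.647 to −1.16), that of UGT2A3 without WT RIP 2 or WT input 2 (−0.834 and −0.978), and those of UGT2B11 without mutant input 3 (−0.773) in the mutant line and without WT RIP 2, WT RIP 3 or WT input 3 (−0.786 to −0.832) in WT. UGT2B10, which conjugates tricyclic drugs, was at most 0.719 CPM, with −1.62 ± 0.49 in WT beside 0.12 ± 0.52 in the mutant, and the difference of 1.73 ± 0.72 did not pass (edgeR adjusted p = 0.283). UGT2B4, a bile acid and steroid glucuronosyltransferase and the most counted UGT2 gene, had 1.67, 1.44 and 2.29 CPM in mutant RIP against 1.67, 2.7 and 2.01 in mutant input, and 2.43, 2.26 and 2.32 in WT RIP against 3.61, 3.19 and 3 in WT input, and was not called. AKR1B1, the aldose reductase that turns glucose into sorbitol, was the only AKR1 gene called lower in a precipitate, at −0.47 ± 0.16 and −0.51 ± 0.16, which turned to 0.832 and 0.543 with total library size. Its mutant call was lost without mutant RIP 3 or mutant input 1 (−0.327 and −0.369), with the GC trend removed (−0.26) and with factors from coding genes (−0.347).

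HuR is known for U-rich elements, so the 30 bases with most T in the 3′ UTR of the annotated transcript (GENCODE 44 on GRCh37, mRNA strand, runs of 5 or more T in capitals) are shown for genes at both ends of recovery and for the genes richest in T.
CYP20A1, chr2:204166635-204166664: ttcTTTTTTTTTTTTTTTTTTTTTTgtttt
CYP4V2, chr4:187131976-187132005: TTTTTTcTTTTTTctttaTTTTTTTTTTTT
CYP2B6, chr19:41523746-41523775: tcatacaatatttgaTTTTTTTTTTTTTTT
CYP39A1, chr6:46517654-46517683: taattatttctacaaattttctaTTTTTct
CYP27A1, chr2:219679894-219679923: ccctgagcttttgccacttctatcaTTTTT
GSTP1, chr11:67354085-67354114: cttcctttctccaggaccaataaaatttct
CYP2D6, chr22:42522505-42522534: tctaatgtacaataaagcaatgtggtagtt
These windows held 28, 27, 21, 18, 14, 11 and 10 T of 30 in the order printed. The genes were chosen by recovery or T content, so their order is no test. CYP2D6, with 10 T and a 3′ UTR of 75 bases, was among the most enriched. CYP2B6, with 21 T, was among the most depleted, and CYP4V2, with 27 T, was called lower in mutant RIP (−0.99). The other way, CYP20A1, with 28 T, was called higher in mutant RIP, a call lost in several settings. CYP39A1, with 18 T, was enriched in both lines, and CYP27A1 and GSTP1, with 14 and 11 T, were among the most depleted. Over the 48 genes of at least 1 CPM, Spearman rho between the highest T count and the log2 fold change was 0.131 in the mutant line and 0.136 in WT, beside 0.214 and 0.198 over 11667 coding genes. The 48 count each of the 7 UGT1A genes, which are 1 observation, so that locus weighs too much in these values. The pentamer ATTTA, read on the mRNA strand alone, occurred in the 3′ UTR of 61.8% of the 76 tested enzyme genes and of 71.0% of coding genes with a 3′ UTR, and TTTTT in 73.7% and 79.0%; median 3′ UTR lengths were 741 and 1232 bases. A match is a description of the letters and does not show binding.

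GC content of the transcript also moved with recovery. Spearman rho between GC content and the log2 fold change was −0.448 in the mutant line and −0.43 in WT over the 48 enzyme genes, beside −0.591 and −0.515 over 11785 coding genes, as a description across genes of the same libraries. Here too the 48 count each of the 7 UGT1A genes. Of the 22 tested enzyme genes with a GC content of 53% or more, 4 were higher and 12 lower in the mutant line and 4 and 11 in WT, while of the 39 under 45%, 9 were higher and 2 lower in the mutant and 2 and 5 in WT. Of 5054 coding genes of 53% or more, 369 were higher and 3149 lower in the mutant line and 407 and 2846 in WT. Of 5382 coding genes under 45%, 2483 were higher and 761 lower in the mutant line and 1868 and 859 in WT. Under 45% in WT the balance of the few enzyme genes called was thus opposite to that of coding genes. GC-rich exceptions were CYP2D6, CYP2D7 and CYP4F12, which were higher at 63.0%, 63.3% and 55.8% GC, and the GC-rich AKR1A1 (56.3%). With the GC trend removed, 11 enzyme genes were higher and 24 lower in the mutant line and 8 and 30 in WT. The part of GC content in these differences was not tested further.

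**Figure D4:**
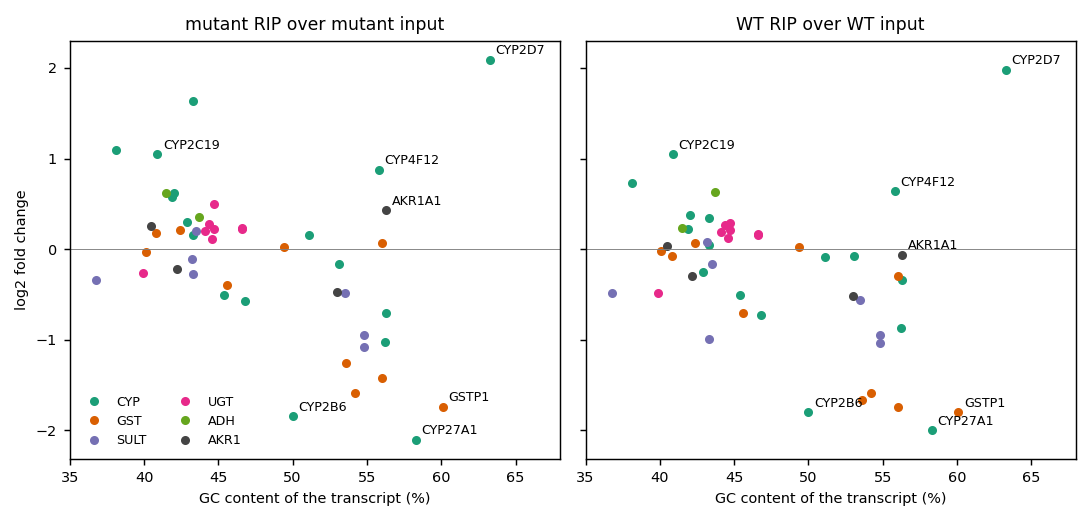
Log2 fold change of precipitate over input (vertical axis) against the GC content of the transcript in percent (horizontal axis) for the 48 enzyme genes of at least 1 CPM, in the mutant line (left) and the WT line (right), coloured by family. Genes under 45% GC lie mostly at or above 0, GSTP1 and CYP27A1 lie low at the GC-rich end, and CYP2D7 lies highest at 63.3% GC.

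The next question was whether recovery with the mutant differed from recovery with WT HuR. In the difference of the 2 enrichments, 0 of the 76 enzyme genes passed edgeR's test (0 by DESeq2, 6 at an unadjusted p under 0.05), beside 0.0653% of all genes (15 higher and 0 lower) and 0.0857% of coding genes. The smallest adjusted p was 0.168, for CYP20A1, at 0.55 ± 0.17: it had 14.4, 13.8 and 13.6 CPM in mutant RIP against 10.9, 11.8 and 11.2 in mutant input. WT RIP held 12.1, 12.6 and 14.8 CPM against 15.9, 14.8 and 16.1 in WT input. The largest difference among genes of at least 1 CPM was that of CYP2C18, 1.28 ± 0.43 (edgeR adjusted p = 0.188). Over the 42 genes of at least 1 CPM, with UGT1A counted once, the median size of the difference was 0.169. AKR1A1, at 0.49 ± 0.17 (edgeR adjusted p = 0.198), passed once the GC trend was removed (0.644, adjusted p = 0.0358), and no other enzyme gene did so under any alternative. A difference that misses the threshold does not show that the lines recovered these mRNAs alike.

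The lines were then compared with each other, in their inputs and in their precipitates. In mutant input over WT input, 9 enzyme genes were higher and 16 lower by edgeR's quasi-likelihood test, 32.9% of those tested beside 17.5% of all genes (7.47% higher and 10.0% lower) and 23.2% of coding genes (8.92% and 14.2%). In mutant RIP over WT RIP, 9 were higher and 9 lower, 23.7% beside 19.6% of all genes (9.87% higher and 9.76% lower) and 25.0% of coding genes (11.6% and 13.4%), so the share between precipitates was near the background. With UGT1A counted once, the same calls fell among 70 genes, which raised these shares slightly. Every one of the 18 called between the precipitates was called in the same direction between the inputs. Over the 42 genes of at least 1 CPM the 2 sets of differences, which share no library, correlated at Pearson r = 0.946 and Spearman rho = 0.894, as a description across genes. No call named between the lines reversed under any scaling, but some were lost. With total library size ADH6 was no longer called between precipitates (0.734) or inputs (0.758), nor CYP2C18 between inputs (0.627). With DESeq2's size factors or factors from coding genes, calls were lost for GSTA1 between precipitates (−0.455 and −0.43) and, between inputs, for CYP2R1 (−0.418 and −0.404), SULT1C4 (−0.546 and −0.53), GSTM2 (−0.458 and −0.445) and GSTA2 (−0.377 and −0.363). GSTA2 between precipitates was lost with factors from coding genes alone (−0.369). The inputs' 16 lower genes became 9 without WT input 1, and 28 with total library size; with coding genes alone tested, the precipitates gave 12 higher and 8 lower.

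Among the genes higher in the mutant line were CYP2C19 and CYP2C18, which lie in the CYP2C cluster on chromosome 10. CYP2C19, whose levels are given above, was higher in each mutant library than in any WT library of the same kind, by 2.62 ± 0.18 between precipitates (edgeR adjusted p = 5.75e-10) and 2.62 ± 0.21 between inputs (adjusted p = 5.57e-09). CYP2C18 was higher by 2.33 ± 0.28 between precipitates, whereas its input difference of 1.05 ± 0.33 rested on overlapping libraries and was lost without any 1 of 4 input libraries (0.819 to 1.09). CYP2C8, which oxidises paclitaxel, lies at the far end of the cluster on the opposite strand and was not called, at 0.80 and −0.29 from under 1 CPM. The genes that flank the cluster were not higher in mutant input: TBC1D12 stood at −0.37, HELLS at −0.25 and PDLIM1 at −0.34, and ACSM6 at 0.70 ± 0.61 was not called.

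A P450 pair on chromosome 19 behaved likewise. CYP2B6 was higher by 1.95 ± 0.27 between precipitates (edgeR adjusted p = 1.28e-05) and 1.99 ± 0.24 between inputs (adjusted p = 3.14e-06), so it was low in both precipitates and high in the mutant line. CYP2S1, downstream of it, had 0.508, 0.359 and 0.321 CPM in mutant RIP and 0.0662, 0.0282 and 0.0281 in WT RIP. Mutant input held 2.38, 3.07 and 2.01 CPM and WT input 0.296, 0.314 and 0.579. Its differences of 3.26 ± 0.51 and 2.63 ± 0.36 were past the threshold in every alternative. Beside this pair, CYP2A6 and CYP2A7, on the side of CYP2B6 away from CYP2S1, were not called (0.23 and 0.50 between inputs). Neither were the neighbours EGLN2 (−0.03), HNRNPUL1 (−0.20) and TGFB1 (0.12) between inputs. None of these genes lies between CYP2B6 and CYP2S1.

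Other genes higher in the mutant line were CYP4F12 (1.22 ± 0.14 between precipitates and 0.98 ± 0.15 between inputs), AKR1C1, ADH6 and UGT2A1. AKR1C1, a steroid reductase that inactivates progesterone, had 1.52, 1.8 and 2.06 CPM in mutant RIP and 0.513, 0.705 and 0.786 in WT RIP. Mutant input held 2.09, 2.52 and 1.64 CPM and WT input 0.972, 0.759 and 0.729. Neither pair of groups overlapped, and the log2 fold change was 1.41 ± 0.27 between precipitates (edgeR adjusted p = 0.000502) and 1.34 ± 0.28 between inputs (adjusted p = 0.0013). Its near relative AKR1C2 was not called (0.67 and 0.85), and reads of the AKR1C genes may have been shared. ADH6 had 1.99, 1.44 and 2 CPM in mutant RIP and 0.811, 1.07 and 1.02 in WT RIP. Mutant input held 0.894, 1.46 and 1.88 CPM and WT input 0.55, 0.786 and 0.557. Its libraries did not overlap, but the call between precipitates was lost without any 1 of 4 RIP libraries (0.781 to 0.935) and that between inputs without mutant input 3 (0.918). UGT2A1, an olfactory glucuronosyltransferase that shares exons with UGT2A2, was at most 1.01 CPM and near 0 in WT, with 0.678, 0.49 and 1.01 CPM in mutant RIP and 0.0662, 0.0564 and 0.0842 in WT RIP. Mutant input held 0.0596, 0.468 and 0.264 CPM and WT input 0, 0 and 0.0858. Its call between inputs was lost without WT input 1, WT input 2 or mutant input 2 (2.39 to 2.58). UGT2A1 met the filter through mutant RIP, where it is high, so its difference between the lines is described only.

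**Figure D5:**
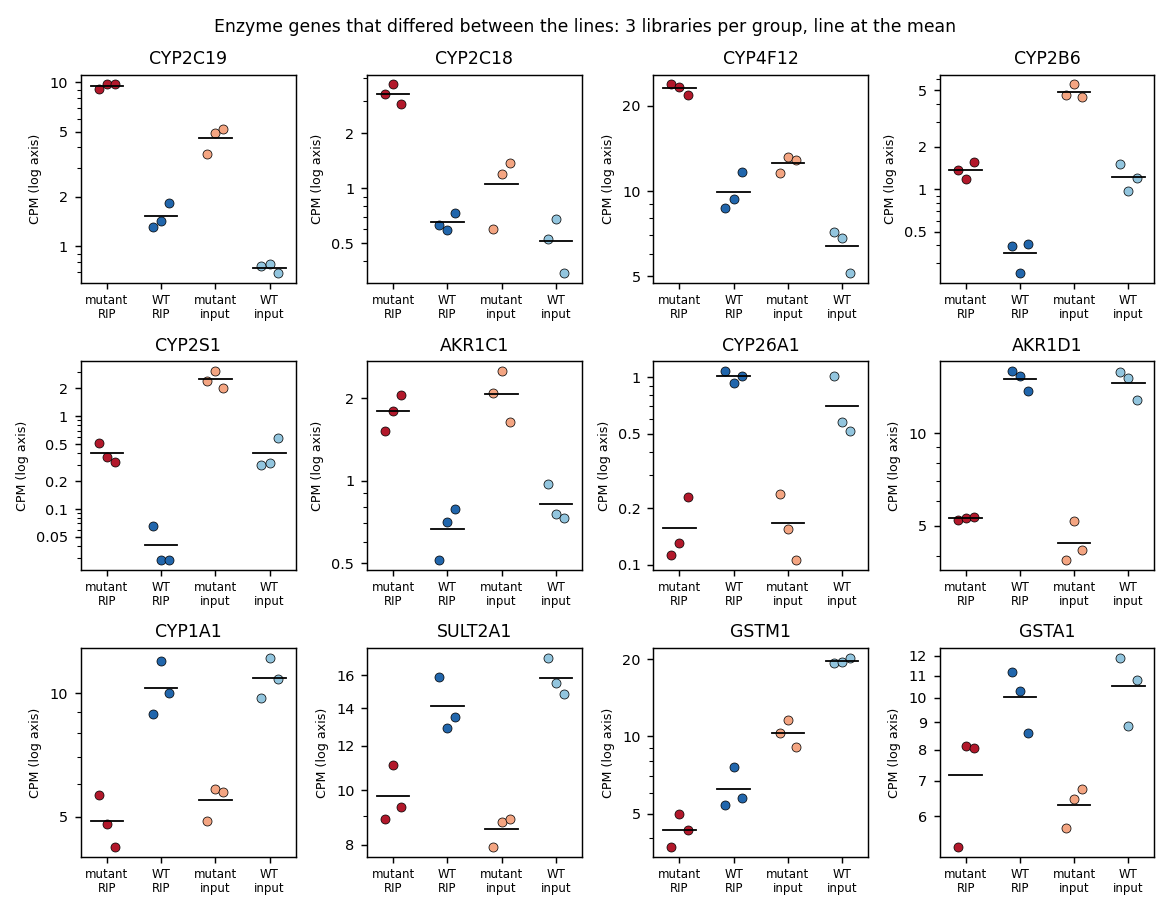
CPM (vertical log axes) of 12 enzyme genes that differed between the lines, in mutant RIP, WT RIP, mutant input and WT input; points are the 3 libraries of a group and the line is their mean. CYP2C19, CYP4F12, CYP2B6, CYP2S1, AKR1C1 and, with overlap between inputs, CYP2C18 are higher in mutant than in WT libraries of the same kind, and CYP26A1, AKR1D1, CYP1A1, SULT2A1, GSTM1 and GSTA1 are lower.

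Genes lower in the mutant line included CYP26A1, AKR1D1 and CYP1A1. CYP26A1, which degrades retinoic acid, had 0.113, 0.131 and 0.229 CPM in mutant RIP and 1.08, 0.93 and 1.02 in WT RIP. Mutant input held 0.238, 0.156 and 0.106 CPM and WT input 1.01, 0.576 and 0.515. The groups did not overlap, at −2.71 ± 0.43 (edgeR adjusted p = 7.1e-05) and −2.08 ± 0.47 (adjusted p = 0.00275), whereas its relative CYP26B1 was not called (−0.34 and −0.19). CYP26A1 met the filter through the WT line, where it is high, so its difference between the lines is described only. AKR1D1, the steroid reductase of bile acid synthesis (ENSG00000122787, chr7:137687070-137803051 on the plus strand), had 5.22, 5.29 and 5.35 CPM in mutant RIP and 15.9, 15.3 and 13.7 in WT RIP. Mutant input held 3.87, 5.2 and 4.18 CPM and WT input 15.8, 15.1 and 12.8. It had the smallest p of the genes lower in the mutant line, at −1.5 ± 0.14 (edgeR adjusted p = 8.02e-08) and −1.72 ± 0.15 (adjusted p = 1.46e-08). CYP1A1 had 5.66, 4.81 and 4.22 CPM in mutant RIP and 8.92, 12 and 10 in WT RIP. Mutant input held 4.89, 5.85 and 5.76 CPM and WT input 9.72, 12.2 and 10.8. Its groups again did not overlap, at −1.07 ± 0.15 between precipitates and −0.98 ± 0.16 between inputs.

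SULT2A1, with the levels given above, was lower, at −0.53 ± 0.13 between precipitates (edgeR adjusted p = 0.0062) and −0.89 ± 0.14 between inputs (adjusted p = 6.15e-05), as was AKR1B1, at −0.65 ± 0.16 and −0.69 ± 0.16. Of the 12 glutathione transferases tested, 4 were lower in mutant RIP than in WT RIP and 6 lower in mutant input than in WT input, with 0 higher by edgeR in either (DESeq2 also called 0 higher, as did an unadjusted p under 0.05). Of coding genes, 13.4% were lower between precipitates and 14.2% between inputs (9.76% and 10.0% of all genes). GSTO1 had 65, 89.9 and 70.9 CPM in mutant RIP and 109, 117 and 96.8 in WT RIP. Mutant input held 73.6, 77.6 and 70 CPM and WT input 107, 104 and 108. All mutant libraries stood below all WT libraries of their kind, at −0.52 ± 0.13 and −0.53 ± 0.13. GSTM1 had 3.7, 4.98 and 4.31 CPM in mutant RIP and 5.39, 7.61 and 5.75 in WT RIP. Mutant input held 10.3, 11.6 and 9.12 CPM and WT input 19.4, 19.6 and 20.3. Its difference between inputs was −0.94 ± 0.15 (edgeR adjusted p = 0.000113), and that between precipitates, −0.53 ± 0.15, was lost without WT RIP 2 (−0.37) or mutant RIP 1 (−0.43). GSTA1 and GSTA2, near-identical alpha-class genes, stood at −0.49 and −0.43 between precipitates, calls lost without mutant RIP 1 (−0.305 and −0.285) or WT RIP 1 (−0.406 and −0.354), and at −0.74 and −0.41 between inputs, where the call of GSTA2 was lost without any 1 of the 6 input libraries (−0.367 to −0.455). GSTP1 was not called between the lines, at −0.07 ± 0.18 and −0.14 ± 0.18. The genes called lower between inputs alone were CYP20A1, CYP2R1, CYP39A1, GSTM2, GSTZ1, SULT1C4 and UGT2A3, at −0.45 to −1.23. Each of these 7 calls was lost without any 1 of 1 to 8 libraries, WT input 1 among them for all but GSTZ1, which was lost without WT input 3 or mutant input 3 (−0.555 and −0.475).

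Of the 10 hepatocyte markers, edgeR called 4 lower in the mutant line between precipitates and 2 between inputs, and 0 higher. Of coding genes, 13.4% and 14.2% were lower (9.76% and 10.0% of all genes), so the count between inputs was near the background. DESeq2 called 2 lower and 1 higher between inputs. The summed level of the markers was below that of WT in each kind of library as given above. AFP, the alpha-fetoprotein of fetal liver and hepatoma, made up most of that sum, at −0.76 between precipitates and −0.70 between inputs. Without AFP the other 9 summed to 1192 to 1386 CPM in mutant RIP against 1446 to 1643 in WT RIP, and to 4028 to 4604 in mutant input against 4266 to 4390 in WT input, so the inputs overlapped. ALB and APOA1 stood at 0.25 and 0.24 between inputs and were not called. The part of the markers in the differences between the lines was not tested.

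Since CYP2C19 and CYP2B6 were higher in the mutant line together, and CYP26A1 lower, their promoters are shown from 250 bases before to 50 after an annotated start (RefSeq, GRCh38.p14), with CYP2C8 as a cluster member that was not called. The capitals mark CAAAGTCC on either strand, letters of the kind bound by the hepatocyte factor HNF4A, or in CYP26A1 the hexamer AGTTCA on either strand, of the kind bound by retinoic acid receptors. The motifs were chosen after looking at these promoters, and of several annotated starts the first whose window held the motif is shown. The presence of a motif in each printed window was thus fixed in advance.
CYP2C19, chr10:94762431-94762730, plus strand: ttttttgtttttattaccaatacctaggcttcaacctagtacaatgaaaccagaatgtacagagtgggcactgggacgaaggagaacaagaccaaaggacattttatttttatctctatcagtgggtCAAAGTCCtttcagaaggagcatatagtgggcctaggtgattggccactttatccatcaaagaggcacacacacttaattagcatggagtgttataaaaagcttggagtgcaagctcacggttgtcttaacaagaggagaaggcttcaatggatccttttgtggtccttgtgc
CYP2B6, chr19:40991032-40991331, plus strand: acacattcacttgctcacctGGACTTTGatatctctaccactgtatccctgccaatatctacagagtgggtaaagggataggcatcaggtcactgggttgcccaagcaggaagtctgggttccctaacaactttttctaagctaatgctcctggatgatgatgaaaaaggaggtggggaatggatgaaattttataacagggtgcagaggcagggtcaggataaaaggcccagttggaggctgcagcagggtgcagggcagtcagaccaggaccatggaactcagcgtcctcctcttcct
CYP2C8, chr10:95069448-95069747, minus strand: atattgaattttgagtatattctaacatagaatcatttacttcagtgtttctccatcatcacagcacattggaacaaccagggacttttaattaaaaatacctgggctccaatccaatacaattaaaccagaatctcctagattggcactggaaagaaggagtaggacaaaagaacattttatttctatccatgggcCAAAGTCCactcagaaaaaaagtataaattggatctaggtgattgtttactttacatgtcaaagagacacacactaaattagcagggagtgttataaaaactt
CYP26A1, chr10:93073643-93073942, plus strand: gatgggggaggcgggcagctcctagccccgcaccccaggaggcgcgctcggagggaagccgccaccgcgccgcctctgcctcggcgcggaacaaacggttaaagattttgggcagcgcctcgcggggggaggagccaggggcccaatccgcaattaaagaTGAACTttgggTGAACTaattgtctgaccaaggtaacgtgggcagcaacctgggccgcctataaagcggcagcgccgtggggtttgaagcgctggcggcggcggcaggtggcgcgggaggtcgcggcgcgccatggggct
CAAAGTCC occurred in 1.2% of 35116 RefSeq promoters of this length and in 6 of the 79 promoters of enzyme genes: CYP2A6, CYP2A7, CYP2B6, CYP2C19, CYP2C8 and CYP2R1. Of these, CYP2B6 and CYP2C19 were called higher in the mutant line, and CYP2R1 was called lower in mutant input, a call lost in several settings. CYP2A6, CYP2A7 and CYP2C8 were not called, from mean levels of 0.239, 0.151 and 0.264 CPM, too low to show that the lines were alike. Whether the letters bear on the differences between the lines was not tested. AGTTCA occurred in 10.4% of promoters and in 18 of the 79, with 2 copies in CYP26A1, whose promoter is known for a retinoic acid response element. Because the motifs were picked from these promoters, their rates in enzyme genes cannot be set against those of all promoters. Close relatives such as CYP2A6 and CYP2A7, or CYP2C8 and CYP2C19, are also not separate cases. HNF4A mRNA itself was lower in mutant RIP than in WT RIP, at −0.70 ± 0.14 (edgeR adjusted p = 0.0011), and stood at −0.14 ± 0.14 between inputs (adjusted p = 0.54). A match is a description of the letters and not a site.

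Genes that serve these enzymes were counted from fixed lists. Of 9 electron transfer partners, 2 were higher and 5 lower in mutant RIP over mutant input and 2 and 4 in WT RIP over WT input. POR, the reductase that feeds electrons to microsomal P450 enzymes, stood at −2.44 ± 0.16 and −2.25 ± 0.16, and its helper CYB5A at 1.08 ± 0.12 and 1.12 ± 0.12. Between the lines 0 partners were higher, by edgeR, by DESeq2 or at an unadjusted p under 0.05, while 2 were lower between precipitates and 3 between inputs. Of 28 regulators tested, 7 were higher and 14 lower in the mutant enrichment and 5 and 12 in WT, with NR1H4, the bile acid receptor, at 1.38 ± 0.16 and 1.13 ± 0.17; between the lines 4 were higher and 8 lower in precipitates and 3 and 3 in inputs. Of 16 cosubstrate genes, 3 were higher and 6 lower in the mutant enrichment and 3 and 7 in WT, with PAPSS1, which makes the sulfate donor, at 1.75 ± 0.13 and GGT1, which breaks down glutathione, at −2.33 ± 0.18 in the mutant; between the lines 3 and 3 were called in precipitates and 2 and 7 in inputs.

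Of 29 enzymes tested from a list of other drug-metabolising enzymes, 7 were higher and 12 lower in the mutant enrichment and 3 and 13 in WT, with the epoxide hydrolase EPHX1 at −2.15 ± 0.15 and −2.11 ± 0.15. The counts include UGT8, higher in the mutant enrichment (0.374), and the sterol synthesis enzyme CYP51A1. CYP51A1 was lower in the WT enrichment (−0.399) and lower in the mutant line between precipitates (−0.765) and inputs (−0.962). The carboxylesterase CES1 was lower in the mutant line, at −1.47 ± 0.14 between precipitates and −1.37 ± 0.14 between inputs, where the list had 3 higher and 7 lower, and 2 higher and 6 lower. Of 17 aldehyde dehydrogenases, 3 were higher and 8 lower in the mutant enrichment and 0 and 8 in WT by edgeR (1 higher at an unadjusted p under 0.05, 0 by DESeq2); ALDH1A1, which makes retinoic acid, was lower in the mutant line, at −1.11 ± 0.13 and −1.44 ± 0.13, beside 2 higher and 4 lower in the list between precipitates and 1 and 5 between inputs. Of 21 drug and bile transporters, 6 were higher and 9 lower in the mutant enrichment and 3 and 7 in WT, with the efflux pump ABCC4 at 1.54 ± 0.13 and 1.26 ± 0.13; between the lines 6 and 3 were called in precipitates and 5 and 3 in inputs. The last list held steroid dehydrogenases and reductases with other steroid and bile acid genes: STAR, STARD3, STS, AMACR, ACOX2, BAAT and SLC27A5. Of its 26 genes tested, 2 were higher and 13 lower in the mutant enrichment and 2 and 15 in WT. Between the lines 2 were higher and 7 lower both in precipitates and in inputs. The shares of all genes called in each comparison are those given for the enzyme genes. In the difference of enrichments 0 genes of these lists were called by edgeR; DESeq2 called 3 cosubstrate genes and 1 aldehyde dehydrogenase higher, and at an unadjusted p under 0.05 a list held up to 4 genes.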

How the data were processed

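RNA of HuH-7 cells was sequenced with a stranded total RNA kit, per the labels, as 6 precipitates of V5-tagged HuR and 6 inputs. The authors deposited whole-number read counts per gene, 1 file per library, with no normalization. Per the submitters' processing notes, bcl2fastq 2.20.0.422, cutadapt, STAR 2.4.0j and featureCounts 1.6.4 were used with hg19; which annotation was counted, on which strand, and how multi-mapped reads were treated are not given in the sources used here. Of counts between 1 and 20, 74.1% were even; the cause was not tested, and no counting interval is given.

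From the 57773 counted genes, those with at least 10 counts in enough libraries (edgeR's filterByExpr, total of at least 15) were kept, 22984 in all. Library sizes were scaled by the trimmed mean of M values (factors of 1.32 to 1.78 in RIP and 0.526 to 0.909 in input libraries). One model with 4 group means over the 12 libraries was fitted by edgeR 4.0.16's robust quasi-likelihood test in R 4.3.3 for 5 comparisons, with Benjamini-Hochberg adjustment over all genes tested and a threshold of 0.05. DESeq2 1.42.0 was an alternative. The script was tested on simulated data. Exon lengths, GC content and 3′ UTRs came from GENCODE 44 on GRCh37, which matched 55538 identifiers, and promoters from RefSeq. No other sample columns were present. A few items are counted in the totals and not reported here.

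The enzyme genes and the lists were chosen with earlier results of these data known. Genes named were, among those of at least 1 CPM, the 5 highest and 5 lowest called in each comparison and the most counted gene of each family; others are named as counterparts, after their values were seen. Replicate numbers did not pair the libraries. Alternatives were other scalings and filters, DESeq2, a replicate block, removal of the GC trend and leaving out each library.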

Additional observations from a re-analysis of the deposited data

How the results depend on the processing

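Of 102 gene results over 2396 pairs of result and setting, 2173 kept direction and call, 197 kept the direction and crossed the threshold, and 26 turned, and 52 gene results held in every setting. Total library size turned the depletion in mutant RIP and WT RIP to 0.289 and 0.188 for CYP26B1, 0.513 and 0.069 for GSTO2, 0.832 and 0.543 for AKR1B1, 0.915 and 0.329 for GSTM3, 0.751 and 0.346 for CYP2J2, 0.81 and 0.525 for CYP4F3, 0.828 and 0.467 for SULT1A1, 0.235 and 0.019 for SULT1A4, 0.366 and 0.105 for SULT1A3, and 0.349 and 0.2 for UGT2B11. In mutant RIP alone CYP27B1 turned to 0.622, GSTM1 to 0.049 and CYP4V2 to 0.327, and in WT RIP alone SULT1C4 to 0.075. CYP20A1 in mutant RIP turned to −0.156 with the GC trend removed and −0.155 with the GC trend removed and a replicate block. With total library size the calls were 55 higher and 3 lower for mutant enrichment, 49 and 7 for WT enrichment, 8 and 10 between precipitates and 7 and 28 between inputs, and the summed levels were 1015, 1208, 816 and 1255 CPM in mutant RIP, WT RIP, mutant input and WT input. WT enrichment had 11 higher with coding genes alone tested, a setting chosen after seeing the data. The difference of enrichments had 1 call, AKR1A1, with the GC trend removed and also with the replicate block added. The cause was not tested. Leaving out 1 library gave 10 to 14 higher and 14 to 19 lower for mutant enrichment, 6 to 9 and 16 to 21 for WT enrichment, 8 to 9 and 7 to 10 between precipitates, 7 to 9 and 9 to 16 between inputs and 0 for the difference. Libraries of the same number correlated at 0.357, 0.612 and 0.0441 between mutant RIP and WT RIP and at −0.521 to 0.42 between other groups, so the numbers did not pair the libraries throughout, and a replicate block gave 12 and 19, 6 and 21, 0 and 0, 9 and 9, and 9 and 15 for mutant enrichment, WT enrichment, their difference, precipitates and inputs. Depth limited 41 enzyme genes to no test.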
